A study of Mus musculus with 23 samples.

Results

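S100a7a, Prl2c2, F2r, Il5ra and Gatm are 5 of the 27207 genes counted in organoids of mouse pancreatic ductal adenocarcinoma, and they were chosen by their high counts in collagen-grown organoids at day 7, when branches extend into the gel. The bulk RNA sequencing held 23 libraries in 6 groups. KC cells, from the tumor of a mouse with Ptf1a Cre/+, were sequenced as 2D cultures (n = 6), as organoids at day 13 in Matrigel, a basement membrane extract (n = 3), and as organoids in floating rat tail collagen type I gels at day 7 (n = 3) and at day 13, the last in a first batch (n = 5) and a second batch (n = 3). KPC organoids, from a mouse with Pdx1 Cre/+, were sequenced at day 13 in collagen in the second batch (n = 3). All groups therefore carried a Cre driven in the pancreatic lineage, each genotype was 1 tumor cell line, and the KC and KPC lines differed in the Cre driver and the mouse as well as in genotype. 2D cells were lysed in the dish, and organoids were lysed after collagenase had digested the gel. No other group was collected at day 7, and that group had 1 batch.

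The 5 genes have different jobs. S100a7a encodes the mouse relative of psoriasin, a small calcium-binding protein that epithelia secrete under inflammatory stress, and Prl2c2 encodes proliferin, a secreted hormone of the prolactin family best known from the placenta, where it promotes the growth of vessels. F2r encodes PAR1, a G protein-coupled receptor that thrombin and some matrix-degrading proteases switch on by cutting its extracellular end, and Il5ra encodes the ligand-binding chain of the interleukin-5 receptor, best known from eosinophils. Gatm encodes the mitochondrial enzyme that moves the amidino group of arginine onto glycine, the first step of creatine synthesis.

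Library totals ran from 1221451 to 2471058 unique molecular identifier (UMI) counts, with a median of 1845921, and a count of 0 allowed up to 1.16 to 3.202 CPM (counts scaled to equal library size with TMM factors) depending on the library. Differences were tested for all genes at once with edgeR's quasi-likelihood test, and a gene was called higher or lower where its Benjamini-Hochberg adjusted p was under 0.1. The labels were checked with markers. The summed level of 8 ductal epithelial markers lay between 7118 and 13912 CPM in all 23 libraries, most of it from keratins. Between day 7 and day 13 of the first batch 2 of the 7 tested ductal markers were higher at day 7 and 3 lower, among them Epcam, at 5.83 ± 1.72 against 55.8 ± 13.3 CPM (log2 fold change −3.27, adjusted p = 3.87e-10), and Sox9, at 87.0 ± 4.19 against 201 ± 59.8 CPM (−1.21, adjusted p = 3.63e-04). Cldn4 had no counts at day 7 or in the second batch of KC organoids and at most 1 count in any other KC library. The 6 endothelial markers summed to at most 2.65 CPM and the 4 platelet markers in the table to at most 7.53 CPM. Of 6 eosinophil markers only 1 was in the table, at up to 3.12 CPM, and none of the 5 trophoblast markers was in the table. The 4 leukocyte markers in the table summed to 3.39 to 5.85 CPM at day 7, 11.98 to 21.9 CPM at day 13 in the first batch and 18.5 to 21.1 CPM in the second, 30.5 to 36.4 CPM in Matrigel, 4.54 to 18.1 CPM in 2D and 5.95 to 11.5 CPM in KPC organoids. Most of this was Cd68, a lysosomal protein gene of macrophages and other cells, while Ptprc, which defines leukocytes, had at most 3 counts in any library. At day 7 against day 13 in the first batch, acinar markers summed to 2.97 to 4.39 against 11.98 to 14.7 CPM, and fibroblast markers to 54.2 to 88.2 against 49.8 to 101 CPM. Among the 2D cultures, replicates 1 to 3 stood apart from replicates 4 to 6, with totals up to 1382736 counts against at least 1649327 and scaling factors of 0.738 to 0.772 against 1.04 to 1.06.

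All 5 genes reached their highest level in the day 7 organoids, and for each gene the lowest of the 3 day 7 libraries lay above the highest of the other 20. Because this peak is what selected them, it is described here and not tested. Across the 11144 genes with enough counts to be tested, 953 genes (8.55%) showed the same separation. The ratio of the day 7 mean to the next highest group mean was 8.70 for S100a7a, the second highest of all tested genes, 4.60 for Prl2c2 (place 11), 3.53 for Il5ra (place 21), 2.80 for F2r (place 49) and 2.38 for Gatm (place 101). The median ratio over all tested genes was 0.718, and 204 genes (1.83%) had a ratio above 2. In a bulk library fewer cells expressing a gene and less RNA per cell cannot be told apart.

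**Figure D1:**
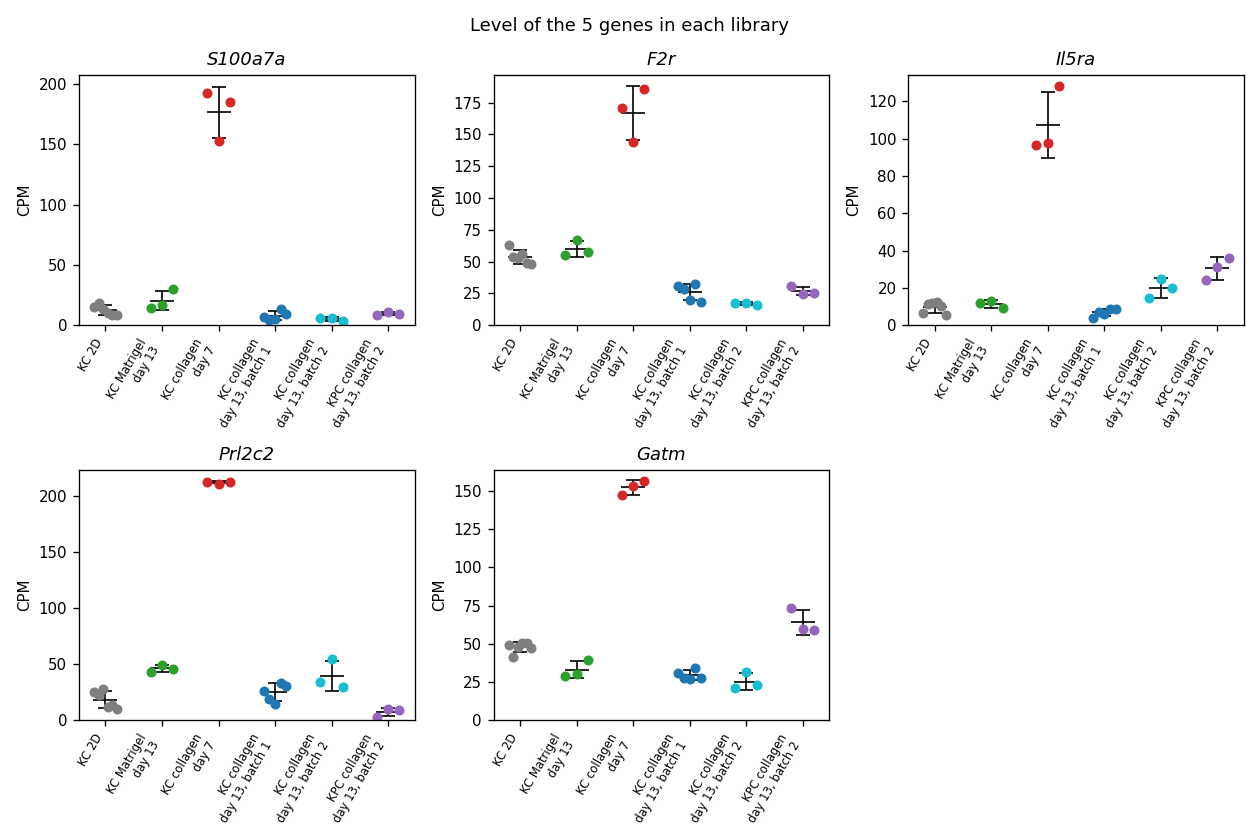
Level of each of the 5 genes in CPM (vertical axis, starting at 0) in every library (points) of the 6 groups (horizontal axis), with the group mean and SD as black bars. The 3 day 7 libraries lie above all 20 others in each panel, and the second highest group is Matrigel for S100a7a, F2r and Prl2c2 and KPC for Il5ra and Gatm.

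**Figure D2:**
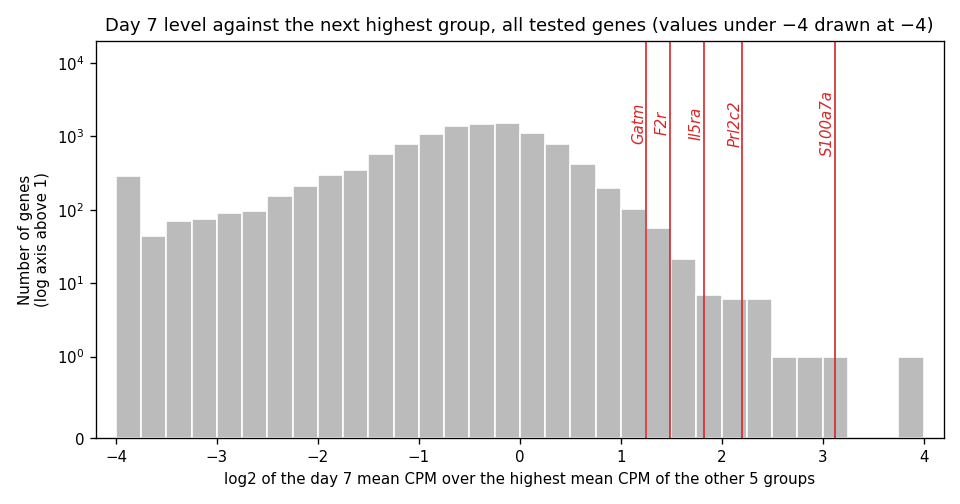
Number of tested genes (vertical axis, logarithmic above 1) by the log2 ratio of the day 7 mean CPM to the highest mean CPM of the other 5 groups (horizontal axis), for 11144 genes, with ratios under −4 drawn at −4. Red lines mark the 5 genes, from Gatm at a ratio of 2.38 to S100a7a at 8.70.

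For 4 of the 5 genes the RefSeq promoter table held a sequence. The windows below cover the 250 bases before the RefSeq transcription start on GRCm38.p6, read 5′ to 3′ on the strand of the gene, and are shown because the genes peak together at day 7. They were searched on both strands for the AP-1 motif TGANTCA, which reads as itself on the opposite strand, for the TEAD core motif GGAATG and for the TATA box TATAAA. Matches are in capitals. Prl2c2 was not among them.
F2r, chr13:95618467-95618716, minus strand: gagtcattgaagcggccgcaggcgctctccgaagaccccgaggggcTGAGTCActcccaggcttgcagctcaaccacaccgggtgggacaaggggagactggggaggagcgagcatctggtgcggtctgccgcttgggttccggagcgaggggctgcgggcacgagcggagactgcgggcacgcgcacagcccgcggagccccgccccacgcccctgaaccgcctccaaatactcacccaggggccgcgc
Il5ra, chr6:106749038-106749287, minus strand: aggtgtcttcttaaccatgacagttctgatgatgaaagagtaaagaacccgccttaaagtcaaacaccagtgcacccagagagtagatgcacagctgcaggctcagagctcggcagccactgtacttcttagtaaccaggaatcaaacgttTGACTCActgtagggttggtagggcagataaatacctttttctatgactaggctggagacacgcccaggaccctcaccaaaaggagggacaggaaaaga
S100a7a, chr3:90654052-90654301, plus strand: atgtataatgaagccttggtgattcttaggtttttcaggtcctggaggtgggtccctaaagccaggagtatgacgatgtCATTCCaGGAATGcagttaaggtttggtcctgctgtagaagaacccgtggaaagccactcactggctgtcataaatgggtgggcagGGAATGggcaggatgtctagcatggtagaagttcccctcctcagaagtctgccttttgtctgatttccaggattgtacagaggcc
Gatm, chr2:122611278-122611527, minus strand: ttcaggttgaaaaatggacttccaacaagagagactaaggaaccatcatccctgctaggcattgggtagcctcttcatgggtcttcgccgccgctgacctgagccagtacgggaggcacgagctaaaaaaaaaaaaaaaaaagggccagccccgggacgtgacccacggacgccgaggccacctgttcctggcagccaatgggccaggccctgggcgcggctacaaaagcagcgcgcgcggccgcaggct
The receptor genes each held 1 AP-1 match. It read TGAGTCA at positions −204 to −198 before the start of F2r and TGACTCA at −99 to −93 before the start of Il5ra. The S100a7a window held GGAATG on both strands, at −171 to −166 on the opposite strand and at −164 to −159 and −85 to −80 on the gene's own strand, and it lies inside the GENCODE M21 gene model, which starts further upstream. The Gatm window held none of the motifs, and TATAAA was found in none of the 4. Over 32851 promoter windows of the same length, 6.75% held the AP-1 motif, 12.6% the TEAD motif and 12.4% the TATA box. A match is only a run of letters and shows no binding.

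S100a7a, on GRCm38 chr3:90654017-90658669 in the cluster of S100 genes, was low outside day 7. Its day 7 libraries held 193, 152 and 185 CPM, from 395 to 436 counts each. At day 13 in collagen it stood at 6.45, 4.29, 5.23, 13.4 and 9.40 CPM in the first batch. All 5 values lay far below those of day 7, and on the log2 scale day 7 exceeded day 13 by 4.49 with an SE of 0.23, a 22.5-fold difference. The second batch gave 5.92, 6.24 and 3.31 CPM at day 13, and KPC organoids gave 8.25, 10.7 and 8.92 CPM. Matrigel organoids held 14.5, 16.9 and 29.5 CPM, above every day 13 collagen library. The 6 cultures in 2D ran from 8.12 to 18.3 CPM with a median of 11.9. These overlapped with both the Matrigel and the collagen libraries. Below day 7, every neighboring pair of groups in the order Matrigel, 2D, KPC, first batch and second batch overlapped.

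The other genes of this family moved both ways. Of the 19 tested genes of a list of S100 proteins, annexins and their partners, S100a7a left out, 12 were higher and 4 lower at day 7 than at day 13, with a median log2 fold change of 0.53. Over all tested genes 55.1% passed the same test, 3126 (28.1%) higher and 3019 (27.1%) lower, with a median of 0.01. S100a6 rose from 5780 ± 191 CPM at day 13 (SD, n = 5) to 8523 ± 513 CPM at day 7 (n = 3), a log2 fold change of 0.56 (edgeR adjusted p = 0.00188), and S100a11 rose from 1191 ± 83.5 to 2017 ± 108 CPM (0.76, adjusted p = 1.23e-06). Those 2 genes encode small calcium-binding proteins found in many epithelial cells. S100a10, whose protein pairs with annexin A2 at the cell surface, rose by a log2 fold change of 0.85 (adjusted p = 0.00301), and Anxa2 itself by 0.40 (adjusted p = 0.00832). S100a3 and Anxa11 had the highest log2 fold changes beside S100a7a, 1.14 and 1.53, but few counts, with day 7 means of 9.24 and 8.48 CPM.

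Other members of the list fell. S100g, which encodes the calcium carrier calbindin-D9k, went from 80.1 ± 48.8 CPM at day 13 (n = 5) to 8.14 ± 1.18 CPM at day 7 (n = 3), a log2 fold change of −3.29 (adjusted p = 1.68e-07), and S100a14 went from 182 ± 55.8 to 30.1 ± 3.35 CPM (−2.59, adjusted p = 9.55e-08). Bsg, which encodes the membrane protein basigin, fell by 1.04 on the log2 scale (adjusted p = 1.71e-07). S100a8, the neutrophil-associated calprotectin subunit, had 3 to 4 counts in each day 7 library and 0 in every day 13 collagen library. Around S100a7a on chromosome 3, the 3 nearest tested genes on one side, S100a3, S100a4 and S100a6, were higher at day 7. On the other side the cornified envelope genes Sprr2a3 and Sprr1a were lower, with log2 fold changes of −1.88 and −0.51. Gm9774 on that side did not pass the edgeR test (adjusted p = 0.335). Genes on that side are distant neighbors, of which the nearest, Sprr2a3, starts at chr3:92285417, while S100a6 ends at chr3:90624181.

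Prl2c2 lies on chr13:12996125-13005383, between its relatives Prl2c3 (chr13:12790816-12800079) and Prl2c5 (chr13:13182715-13191923). The start of the coding sequence in GENCODE M21 shows how these genes differ. Bases 1 to 120 are given, with capitals at the positions that differ among the 3 genes.
Prl2c2: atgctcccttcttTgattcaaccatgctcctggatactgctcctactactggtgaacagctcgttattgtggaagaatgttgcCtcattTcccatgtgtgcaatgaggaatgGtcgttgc
Prl2c3: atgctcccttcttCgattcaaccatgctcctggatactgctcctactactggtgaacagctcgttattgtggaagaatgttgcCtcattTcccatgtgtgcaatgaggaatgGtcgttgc
Prl2c5: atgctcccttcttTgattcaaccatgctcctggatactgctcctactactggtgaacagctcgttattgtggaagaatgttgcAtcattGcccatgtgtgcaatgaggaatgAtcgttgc
Over the whole coding sequence Prl2c2 and Prl2c3 shared 669 of 672 bases (99.6%). Of the 238 possible 63-base reads in the last 300 bases of the Prl2c2 transcript, where the libraries of transcript ends collect their reads, 238 also occur in Prl2c3 and 0 in Prl2c5. Counts of Prl2c2 and Prl2c3 are therefore uncertain as to which gene they came from, while those of Prl2c5 can be told apart. The ratio of Prl2c3 to Prl2c2 counts, summed within a group, lay between 0.432 in KPC organoids and 0.661 in the second batch of KC organoids.

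In the day 7 organoids Prl2c2 stood at 213, 211 and 213 CPM. This spread, a coefficient of variation of 0.437%, is narrower than the counting error of 436 to 548 counts, so that the SD of 3 libraries understates the error here. At day 13 the first batch held 26.3, 19.1, 14.3, 33.4 and 30.3 CPM, all well below day 7, and the log2 fold change was 3.10 with an SE of 0.23. The second batch held 33.6, 54.1 and 29.8 CPM and Matrigel organoids 43.0, 49.4 and 45.8 CPM, so that both day 13 collagen batches overlapped with each other and the second also with Matrigel. KPC organoids held 2.54, 9.52 and 8.92 CPM, the lowest group. The 2D cultures split in the way their libraries did, with 24.6, 22.2 and 27.4 CPM in replicates 1 to 3 and 11.8, 12.9 and 9.36 CPM in replicates 4 to 6.

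Its paralogs were also highest at day 7. Prl2c3 had 120, 120 and 156 CPM at day 7 against 8.10 to 21.9 CPM in the first batch at day 13. The log2 fold change was 3.34 (SE 0.27). Of the 63-base reads in the last 300 bases of its transcript, 97.9% also occur in Prl2c2, which was chosen by its day 7 counts. The Prl2c3 difference is therefore described and not tested. Prl2c5 had 18 to 25 counts per library against 1 to 7 (2.52, SE 0.40, adjusted p = 1.53e-05). Summed over the 3 genes, so that the split between them does not matter, although reads matching several genes may have been left out, the level was 354 ± 22.2 CPM at day 7 (SD, n = 3), 39.3 ± 13.6 CPM in the first batch at day 13 (n = 5), 70.6 ± 18.5 CPM in the second (n = 3), 70.0 ± 8.51 CPM in Matrigel (n = 3), 27.4 ± 12.1 CPM in 2D (n = 6) and 10.1 ± 6.50 CPM in KPC organoids (n = 3). Igf2r encodes a mannose 6-phosphate receptor to which proliferin can bind, and M6pr encodes another mannose 6-phosphate receptor. Igf2r and M6pr were both lower at day 7, by 0.60 and 0.64 on the log2 scale (adjusted p = 0.0340 and 1.49e-04). These 4 genes were the tested part of a list of 17 prolactin family and receptor genes, of which 10 were in the table.

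**Figure D3:**
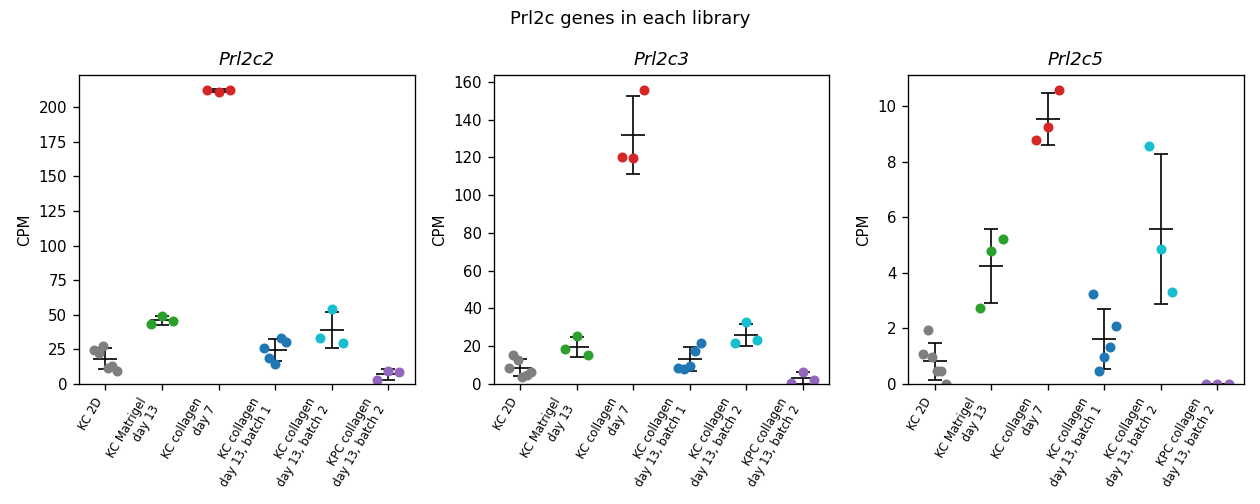
Levels of Prl2c2, Prl2c3 and Prl2c5 in CPM (vertical axes, each starting at 0 with its own range) in every library (points) of the 6 groups (horizontal axis), with mean and SD as black bars. All 3 genes are highest at day 7, and Prl2c5 has no count in the 3 KPC libraries.

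F2r, the thrombin receptor gene on chr13:95601803-95618487, had at least 24 counts in every library. It stood at 171, 144 and 186 CPM at day 7 and at 30.4, 28.1, 19.98, 32.1 and 18.3 CPM in the first batch at day 13, a log2 fold change of 2.69 with an SE of 0.14. The second batch, with 17.8, 17.3 and 15.9 CPM, was the lowest group, and KPC organoids held 30.5, 24.4 and 25.2 CPM. The non-branching cultures lay between day 7 and day 13. Matrigel organoids gave 55.1, 66.7 and 57.3 CPM and the 2D cultures 48.0 to 62.98 CPM with a median of 53.5. Those 2 groups overlapped with each other but with no collagen group.

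The other genes of protease-activated receptors were not higher at day 7. F2rl1, the gene for PAR2, which trypsin-like proteases activate, had group means of 75.0 to 104 CPM in all 6 groups and did not differ detectably between day 7 and day 13 (log2 fold change 0.09, SE 0.12, adjusted p = 0.570), although it lies next to F2r on chromosome 13. F2rl2 had 0 counts in all 23 libraries and F2rl3 at most 2 counts in any library. F2, the gene for thrombin itself, named here after its values were seen, also had 0 counts in all 23 libraries.

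Of 25 tested genes of coagulation proteases, their inhibitors, G proteins and other partners of the receptor, 6 were higher and 7 lower at day 7, with a median log2 fold change of 0.02, against 55.1% of all genes passing. Those that rose most were surface and protease genes. Procr, which encodes the endothelial protein C receptor that brings activated protein C to PAR1, went from 12.1 ± 2.00 CPM at day 13 (n = 5) to 48.6 ± 7.39 CPM at day 7 (n = 3), a log2 fold change of 2.00 (SE 0.16, adjusted p = 3.49e-10). Plat, tissue plasminogen activator, went from 38.3 ± 3.75 to 131 ± 21.4 CPM (1.78, SE 0.14, adjusted p = 2.15e-10), and F3, the tissue factor that starts thrombin formation, rose by 0.82 (adjusted p = 2.62e-06). Mmp13, a collagenase, had a log2 fold change of 2.43 (adjusted p = 0.00592) on 2 to 14 counts per day 7 library. On the signalling side the G protein gene Gnai2 rose by 0.50 (adjusted p = 0.00360) and Rhoa by 0.33 (adjusted p = 0.0233), whereas Gna13, Arhgef11 and the arrestin gene Arrb1, whose protein takes active receptors off the signalling pathway, fell by 0.60, 0.81 and 0.96 (adjusted p = 0.0120, 0.0207 and 9.01e-05). Gna11 and Plaur did not pass the test.

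Il5ra, on chr6:106710357-106749037, had 96.5, 97.8 and 128 CPM at day 7. In the first batch at day 13 it had 3.69, 7.15, 5.71, 8.46 and 8.88 CPM, from 8 to 19 counts per library, and the log2 fold change was 3.98 with an SE of 0.21. The second batch, of the same genotype, matrix and day, held 14.5, 24.96 and 19.9 CPM, above every library of the first batch. KPC organoids held 24.1, 30.9 and 36.2 CPM and were the second highest group, although they overlapped with the second batch of KC organoids. Matrigel organoids had 11.7, 13.0 and 9.27 CPM and 2D cultures 5.27 to 12.3 CPM with a median of 10.8. Against the second batch the day 7 difference shrank to a log2 fold change of 2.44 (SE 0.22).

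The interleukin-5 receptor signals through a second chain, the common beta chain encoded by Csf2rb, which it shares with the receptors for interleukin-3 and GM-CSF. Csf2rb had 1 count in 1 Matrigel library and 0 counts in the other 22 libraries, day 7 included, where 0 allows at most 1.16 to 1.46 CPM. The ligand-binding chains of the sister receptors did not rise with Il5ra. Il3ra had 14.03 ± 1.22 CPM at day 7 (n = 3) and 12.2 ± 2.52 CPM at day 13 (n = 5), with an adjusted p of 0.520, and Csf2ra, at 4.11 ± 0.44 against 6.48 ± 1.47 CPM, was lower (log2 fold change −0.64, adjusted p = 0.0822). A level for interleukin-5 itself was not analysed here.

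Of 22 tested genes of this cytokine receptor family and its JAK-STAT signalling, 4 were higher and 11 lower at day 7, with a median log2 fold change of −0.37, against 55.1% of all genes passing and a median of 0.01. Genes whose products restrain JAK-STAT signalling moved unevenly. Cish went from 7.06 ± 2.09 CPM at day 13 (n = 5) to 1.84 ± 0.34 CPM at day 7 (n = 3), a log2 fold change of −1.89 (adjusted p = 3.75e-04), Socs2 from 32.7 ± 6.52 to 16.7 ± 1.27 CPM (−0.97, adjusted p = 7.79e-05), and Socs3 fell by 0.75 (adjusted p = 2.47e-06), while Socs1 at 0.32 did not pass the test (adjusted p = 0.452). Il13ra1, a receptor chain for interleukin-13, fell by 1.22 (adjusted p = 9.17e-04), and Sdcbp, the gene for syntenin, which binds the tail of the interleukin-5 receptor, by 0.62 (adjusted p = 5.98e-05). The kinase genes Syk and Pim1 rose by 1.81 and 0.72 (adjusted p = 4.01e-04 and 4.59e-04), and so did Csf2, the gene for GM-CSF, by 2.28 (adjusted p = 8.57e-04) on 7 to 21 counts per day 7 library. Jak1 and Bcl2l1 did not pass the test. The nearest tested genes on either side of Il5ra, Ppp4r2 and Trnt1, were higher at day 7, with log2 fold changes of 0.33 (adjusted p = 0.0721) and 1.02 (adjusted p = 3.95e-06). Ppp4r2 is a distant neighbor and ends at chr6:100869934. Further out, Sumf1 was lower (−0.91, edgeR adjusted p = 4.01e-05), and Shq1, Gxylt2 and Crbn did not pass the test.

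Gatm, on chr2:122594467-122611303, stood at 147, 153 and 157 CPM at day 7 and at 30.9, 27.2, 27.1, 34.3 and 27.7 CPM in the first batch at day 13, a log2 fold change of 2.37 with an SE of 0.12. The second batch gave 21.1, 31.2 and 23.2 CPM and Matrigel organoids 28.9, 30.3 and 39.4 CPM, and the KC groups of day 13 overlapped. KPC organoids, at 73.6, 59.5 and 58.8 CPM, and 2D cultures, at 41.5 to 50.4 CPM with a median of 48.6, lay above them and did not overlap with each other.

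Later steps of creatine handling were not higher at day 7. Gamt, whose enzyme methylates the product of Gatm to creatine, had 14.8 ± 1.30 CPM at day 7 (n = 3) and 15.0 ± 1.76 CPM at day 13 (n = 5), a log2 fold change of −0.02 (SE 0.23, adjusted p = 0.955), and Slc6a8, the creatine transporter, had 35.3 ± 5.24 and 28.8 ± 6.86 CPM (0.28, SE 0.18, adjusted p = 0.198). Ckmt1, the mitochondrial creatine kinase that charges creatine with phosphate, was 12.1 ± 3.46 CPM at day 7 against 180 ± 22.4 CPM at day 13, a fall of the log2 level by 3.91 (SE 0.26, adjusted p = 1.16e-11).

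The substrates of the Gatm enzyme are arginine and glycine. Of 24 tested genes for creatine, arginine, glycine and serine metabolism, 13 were higher and 5 lower at day 7, with a median log2 fold change of 0.58, again beside 55.1% of all genes and a median of 0.01. Phgdh, the first enzyme of serine and glycine synthesis, went from 30.9 ± 5.97 CPM at day 13 (n = 5) to 173 ± 20.4 CPM at day 7 (n = 3), a log2 fold change of 2.48 (SE 0.16, adjusted p = 7.66e-12). Psat1, the next enzyme, went from 66.2 ± 10.9 to 203 ± 8.42 CPM (1.61, SE 0.14, adjusted p = 6.86e-10), and Psph and Shmt2, which complete serine and make glycine from it, rose by 1.06 and 1.16 (adjusted p = 1.50e-04 and 1.56e-07). Odc1, which uses ornithine, the other product of the Gatm reaction, for polyamine synthesis, went from 15.1 ± 3.10 to 50.8 ± 8.11 CPM (1.75, SE 0.18, adjusted p = 1.63e-08), and the amino acid transporter genes Slc7a1 and Slc3a2 rose by 0.78 and 0.74 (adjusted p = 0.00105 and 3.29e-05). Ass1 and Asl, whose enzymes make arginine from citrulline, fell by 1.01 and 0.40 (adjusted p = 0.0188 and 0.0443), the ornithine aminotransferase gene Oat fell by 0.49 (adjusted p = 0.0457), and Otc had 0 to 1 counts per library at day 7 against 2 to 27 at day 13. Mat2a did not pass the test.

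**Figure D4:**
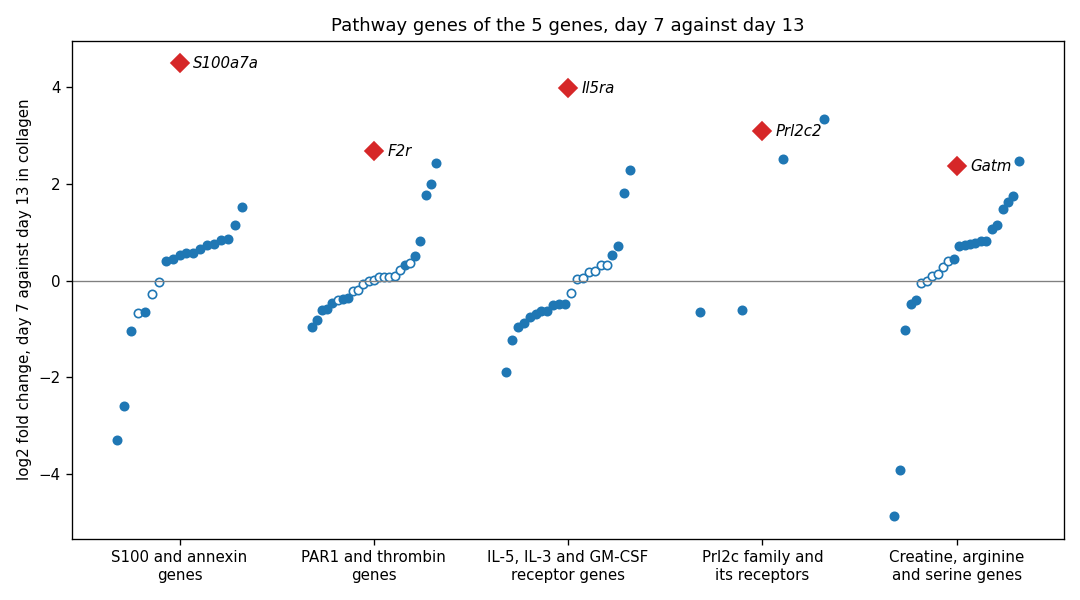
Log2 fold change of day 7 against day 13 in collagen, first batch (vertical axis), for the tested genes of the 5 pathway lists (horizontal axis), with the 5 selected genes as red diamonds and the other genes as blue circles, filled where the adjusted p is under 0.1. The S100 and the creatine, arginine and serine lists lie mostly above 0 (medians 0.53 and 0.58), and the cytokine receptor list mostly below (median −0.37).

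Outside the day 7 libraries the 5 genes went their separate ways. Differences among the other groups were tested, since the genes were chosen as high at day 7. A peak at day 7 also requires lower levels in the other groups, and earlier results of these data were known. These tests are therefore not fully free of the selection. The 5 comparisons are not independent. The first batch of day 13 collagen organoids served in 3 of them, the 2D, Matrigel and second batch libraries in 2 each. The labels do not say whether replicates came from separate cultures, so that p-values measure the spread between these samples.

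Matrigel, in which KC cells form spheres, was compared with collagen, in which they branch, at day 13. With Matrigel 4 of the 5 genes were called higher, beside 6.62% of all tested genes, and none lower, beside 6.29%. F2r was 2.31-fold higher (log2 fold change 1.20, SE 0.15, edgeR adjusted p = 3.56e-06) and S100a7a 2.52-fold (1.34, SE 0.29, adjusted p = 0.00296). Prl2c2 was 1.86-fold higher (0.90, SE 0.26, adjusted p = 0.0258) without overlap, and Prl2c5 was higher by 1.32 (adjusted p = 0.0826) on 7 to 11 against 1 to 7 counts, while Prl2c3 at 0.62 did not pass the test (adjusted p = 0.297). The call for Prl2c2 was lost without Matrigel replicate 2 (adjusted p = 0.115) and with both batches of collagen organoids as the control (0.63, adjusted p = 0.172). Il5ra passed narrowly (0.76, SE 0.28, adjusted p = 0.0890), lost the call in 6 of 8 fits that left out 1 library, and stood at 0.05 against both batches (adjusted p = 0.957). Gatm, with overlapping groups, had a log2 fold change of 0.14 (SE 0.14, adjusted p = 0.660). Cd68 was 2.03-fold higher in Matrigel (adjusted p = 0.00836), and its part in these differences was not tested.

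KPC organoids were compared with KC organoids of the same batch, matrix and day. Of the 5 genes 3 were higher in KPC, beside 9.57% of all genes, and 1 was lower, beside 10.4%. Gatm was 2.54-fold higher (log2 fold change 1.34, SE 0.16, adjusted p = 1.49e-06), and here Gamt, the next enzyme of creatine synthesis, was higher too, with 43.8, 24.99 and 28.3 CPM against 17.8, 12.5 and 11.9 CPM (1.19, SE 0.25, adjusted p = 0.00172). Prl2c2 was 5.43-fold lower (−2.44, SE 0.39, edgeR adjusted p = 6.53e-05). Prl2c3 was lower by a log2 fold change of −3.03 (SE 0.52, edgeR adjusted p = 1.59e-04), but its counts are not separate from those of Prl2c2. Prl2c5 had 0 counts in all 3 KPC libraries against 13, 7 and 5 counts in the KC libraries. F2r was higher by 0.64 (SE 0.21, adjusted p = 0.0423), a call lost without KPC replicate 1, KC replicate 2 or KC replicate 3 (adjusted p = 0.171, 0.106 and 0.139). F2rl1 did not pass the test. Cd68 was 2.49-fold lower in KPC (adjusted p = 0.0158), and its part in these differences was not tested.

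Il5ra was higher in KPC by 0.63 (SE 0.25, adjusted p = 0.0938) with overlapping groups, and lost the call without KPC replicates 2 or 3 or KC replicates 1 or 3, with adjusted p from 0.184 to 0.345. Its chromosome 6 moved as a whole in this comparison. Over the 531 tested genes placed there the median of the log2 fold changes was 0.39, with 167 higher and 23 lower, while the medians for chromosomes 2, 3 and 13, where the other genes lie, were 0.04, 0.03 and 0.00. The part of this shift in the Il5ra difference was not tested. S100a7a did not pass the test (0.85, SE 0.45, adjusted p = 0.239), although its 3 KPC values lay above the 3 KC values.

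The batches could be compared in KC organoids in collagen at day 13, which shows how far these genes vary between batches of the same genotype, matrix and day. In the second batch 2 of the 5 genes were higher, beside 19.3% of all genes, and 1 was lower, beside 18.1%. Il5ra was 2.90-fold higher (log2 fold change 1.54, SE 0.27, adjusted p = 9.89e-05), and on chromosome 6 the median in this comparison was −0.01. F2r was lower by a log2 fold change of −0.60 (SE 0.19, adjusted p = 0.0183). Prl2c2 was higher by 0.66 (SE 0.28, adjusted p = 0.0715) with overlapping groups, a call lost without second batch replicate 2 (0.37, adjusted p = 0.460) or first batch replicates 2 or 3 (adjusted p = 0.152 and 0.174). Gatm and S100a7a overlapped between batches and did not pass the test (adjusted p = 0.264 and 0.301). The day 7 libraries, all of the first batch, also lay above the second batch for each gene, which the choice of genes by day 7 counts favored. The log2 fold changes were 5.08 for S100a7a, 3.29 for F2r, 2.60 for Gatm and 2.44 for both Il5ra and Prl2c2. Day and batch cannot be told apart in these values, which carry no test.

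Against day 13 collagen organoids, 2D cultures were higher in 2 of the 5 genes, beside 26.3% of all genes, and lower in 1, beside 23.3%. F2r was 2.06-fold higher in 2D (log2 fold change 1.04, SE 0.14, adjusted p = 1.40e-06) and Gatm 1.63-fold (0.70, SE 0.12, adjusted p = 3.43e-05), both without overlap. Prl2c2 was lower by 0.57 on the log2 scale (SE 0.26, adjusted p = 0.0794), a call that rested on 2D replicates 4 to 6, since with replicates 1 to 3 alone the log2 fold change was 0.02 (adjusted p = 0.951), and 6 of 11 fits that left out 1 library lost it. S100a7a and Il5ra did not pass the test at 0.54 and 0.51 (SE 0.29 and 0.26, adjusted p = 0.129 and 0.116). With 2D replicates 1 to 3 alone S100a7a passed at 1.03 (adjusted p = 0.00981), and against both batches of collagen organoids Il5ra turned to −0.20 (adjusted p = 0.645).

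The non-branching cultures were compared with each other. Matrigel organoids were higher than 2D cultures in 2 of the 5 genes, beside 20% of all genes, and lower in 1, beside 21.9%. Prl2c2 was 2.77-fold higher (log2 fold change 1.47, SE 0.27, adjusted p = 2.54e-04), and S100a7a was higher by 0.79 (SE 0.28, adjusted p = 0.0294), a call lost without Matrigel replicate 3 (0.46, adjusted p = 0.252) and with 2D replicates 1 to 3 alone (0.31, adjusted p = 0.428). Gatm was lower by a log2 fold change of −0.56 (SE 0.13, adjusted p = 0.00255), which did not pass when libraries were scaled by their totals alone (−0.29, adjusted p = 0.206). F2r and Il5ra overlapped and did not pass the test (0.16 and 0.25, adjusted p = 0.400 and 0.495). Scaled by totals alone, F2r passed at 0.44 (adjusted p = 0.0374).

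**Figure D5:**
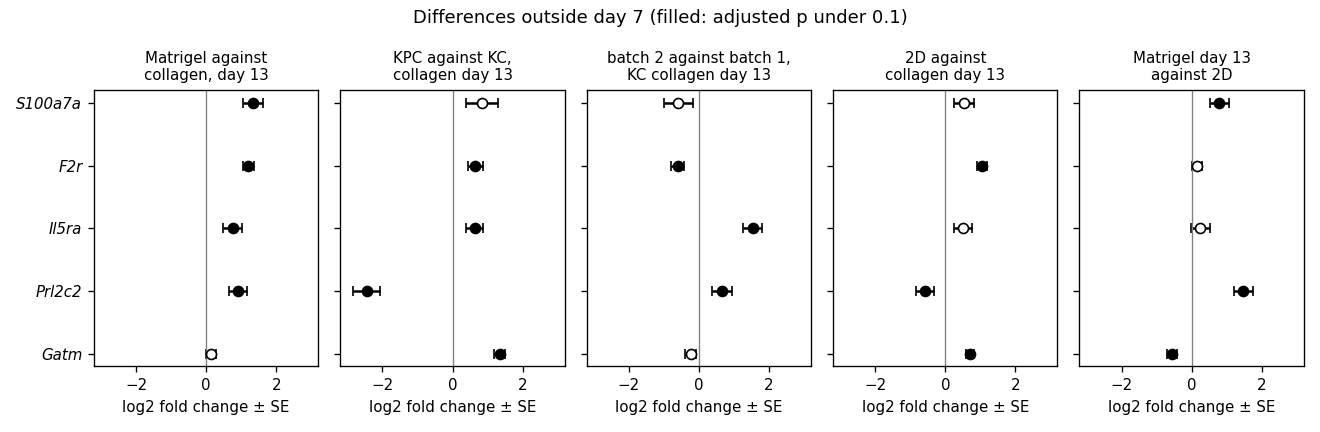
Log2 fold change with its SE (horizontal axes) of the 5 genes (vertical axis) in the 5 comparisons without day 7 libraries, from the edgeR fit, with filled circles where the adjusted p is under 0.1. F2r lies to the right in Matrigel, KPC and 2D, Gatm in KPC and 2D, and Prl2c2 turns from 1.47 in Matrigel against 2D to −2.44 in KPC against KC.

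Over the 23 libraries the 5 genes were like each other to different degrees. These correlations of log2 CPM describe libraries that share groups and the day 7 peak, and they carry no test. Pearson's r was highest between S100a7a and F2r (0.898) and lowest between Prl2c2 and Gatm (0.396). Outside the set, S100a7a was close to Hmga2 (r = 0.917), a chromatin protein gene of embryonic and tumor cells. Those nearest to F2r were Axl (0.951), a receptor tyrosine kinase, and Elk3 (0.944), and those nearest to Gatm were Ppa1 (0.969), a pyrophosphatase, and Ybx3 (0.944). Il5ra was nearest to Septin11 (0.923) and Eif4g2 (0.918), with the AP-1 subunit gene Fosl1 in place 5 (0.902). For Prl2c2 the nearest were its paralogs Prl2c3 (0.967) and Prl2c5 (0.897), then Snx9 (0.856). Counts of Prl2c3 are not separate from those of Prl2c2, so that its r is not a result of its own.

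Pooled over the 5 genes, physical neighbors showed no common direction. Of the 30 tested genes that lie nearest, 3 on each side, 10 were higher and 11 lower at day 7 than at day 13. Their median log2 fold change was 0.08. Over all genes 55.1% passed, 28.1% higher and 27.1% lower. The 10 include Prl2c5 and also Prl2c3, whose counts are not separate from those of Prl2c2. Some single loci leaned to one side and others did not. Around Gatm and F2r all neighbors that passed were lower. Around Prl2c2 all that passed except Ero1lb were higher, its paralogs among them. Around S100a7a and Il5ra the neighbors that passed went both ways. Next to Gatm, Shf and AA467197 fell by 0.40 and 1.79 on the log2 scale (adjusted p = 0.0841 and 2.51e-04), and further out on the side of Shf, Duox2 and Duoxa2, which serve to make hydrogen peroxide at epithelial surfaces, fell by 2.41 and 1.75 (adjusted p = 3.31e-04 and 0.00165). Next to F2r, on the side away from F2rl1, Iqgap2 fell by 1.41 (adjusted p = 1.19e-06). Around the Prl2c genes, Gpr137b and Nid1, which encodes the basement membrane protein nidogen, rose by 0.93 and 1.20 (adjusted p = 3.29e-05 and 1.89e-05).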

How the data were processed

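The libraries were bulk RNA sequencing of transcript ends with molecular identifiers. Per the study's methods the authors aligned reads to GRCm38 and counted the identifiers of each gene in the Drop-seq pipeline, and the deposited values are raw counts of 27207 genes, without normalization. How reads matching several genes were treated is not given in the sources used here. Groups came from the sample labels. Counts were analysed in R 4.3.3 with edgeR 4.0.16, which was tested on simulated data. One quasi-likelihood fit covered 23 libraries in 6 groups with TMM factors, the 11144 genes kept by filterByExpr, and Benjamini-Hochberg adjusted p under 0.1. The study's own tool, DESeq2 1.42.0, was an alternative. CPM used totals over all genes times TMM factors, and correlations used log2 CPM with a prior count of 2. Values of 3 counts bound a count of 0, for counting error only. The 5 genes and the lists were chosen with earlier results of these data known. Named genes were the 5, their 5 nearest by correlation and their relatives, and in each list the 4 with most counts and the 3 that rose or fell most. Other list genes and neighbors were named after their values were seen. Interleukin-5 and S100a9 were not analysed here, and some alleles of the mice and 1 gene named by this rule are not reported here. Positions came from GENCODE M21 and promoters from RefSeq.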

Additional observations from a re-analysis of the deposited data

Results flagged for a closer look

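In the 10 combinations of gene and group with more than 3 libraries, 1 level stood apart from the others of its group. For Gatm in 2D cultures, replicate 2, the lowest at 41.5 CPM, lay away from the other 5 libraries by 0.667 of the whole range, above the 95% limit of Dixon's test for 6 values. Chance gives such a value in about 1 of 20 groups. Without that library Gatm was still higher in 2D than in collagen organoids at day 13 and lower in Matrigel than in 2D.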

How the results depend on the processing

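The calls that changed beside a named gene are given with that gene, and 2 log2 fold changes turned sign. Il5ra in 2D against collagen stood at −0.20 with both batches as control, and Prl2c2 in 2D against collagen at 0.022 without 2D replicates 4 to 6, a choice made after seeing the data. A minimum of 10 counts in each of the libraries, which leaves 7050 genes and removes S100a7a, Il5ra and Prl2c2, left calls among the 5 genes of 1 for Matrigel against collagen, 2 for KPC against KC, 1 between batches and 1 for Matrigel against 2D. The same limit left 4 lower genes in the thrombin list, 3 lower in the creatine list, 2 higher and 6 lower in the cytokine list, and 0 higher in the prolactin list. With no filter KPC against KC had 2. With both batches as control Matrigel against collagen had 2, the creatine list had 3 lower and the S100 list 7 higher, and the cause was not tested. Leaving out 1 library gave 2 to 4 for Matrigel against collagen (2 without Matrigel replicate 2), 2 to 3 for KPC against KC (2 without KC replicate 3) and 1 to 2 lower genes in the prolactin list (1 without day 7 replicates 1 or 2 or day 13 replicate 5). All other counts stayed within 1.5 times under these alternatives, DESeq2, other scalings and 2-group fits.

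Replicate numbers showed no pairing of the libraries. Deviations of same-numbered libraries correlated between −0.119 and 0.188, and in no comparison did every library resemble its own number most. With 3 to 5 pairs per comparison, a weak pairing could be missed. With the replicate number as a block, 1 of the 5 genes was called between batches and 1 gene of the prolactin list was lower. Counting error was wide where counts were low. In the first batch at day 13 S100a7a had 9 to 30 and Il5ra 8 to 19 counts per library. S100a7a had 5 to 9 counts in the second batch of KC organoids, Prl2c2 had 4 to 17 in KPC organoids, and Il5ra had 6 to 27 in 2D.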
